A study of Mus musculus with 2 samples.

Results

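The proteasome genes were taken by name: the 40 protein-coding genes of GENCODE vM21 whose symbol begins with Psma, Psmb, Psmc or Psmd, out of 21755 protein-coding genes on the autosomes and chromosome X. They comprised 19 genes of the core particle, 17 of the regulatory particle, 3 assembly chaperones (Psmd5, Psmd9 and Psmd10) and Psmc3ip, which shares the prefix but encodes a meiotic recombination factor and not a subunit. EP300, a histone acetyltransferase and coactivator found at active promoters and enhancers, had been mapped by ChIP-seq, which sequences the DNA bound to a protein, in 2 libraries of whole liver from B6NCrl mouse embryos at 14.5 days, a stage when the organ is the main site of red cell production. The livers of both sexes had been pooled over several dissections and pulverized, and both libraries, replicates 1 and 2 of a single group, carry the same biosample label, so their spread may be technical. There was no second tissue, age, genotype or treatment, so the results describe where peaks lay and cannot contrast conditions.

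The proteasome degrades proteins tagged with ubiquitin. Its barrel-shaped core stacks rings of alpha subunits, which gate the entrance, on rings of beta subunits, some of which cut peptides. The regulatory particle caps the barrel: a base with a ring of ATPases unfolds substrates, and a lid removes the ubiquitin. In immune cells and under interferon, Psmb8, Psmb9 and Psmb10 replace the catalytic subunits Psmb5, Psmb6 and Psmb7. Maturing red cells rely on ubiquitin-dependent degradation while they clear their organelles and other proteins.

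The analysis used the authors' optimal list of reproducible peaks, 17043 of them on the chromosomes used. Peaks were assigned by summit, to every gene with an annotated transcription start site (TSS) no more than 1 kb, or 20 kb, away. Signal, deposited by the authors for each peak, served to rank peaks inside a list, and had a median of 38.5 in the optimal list. Read totals are not in the files, so depth is unknown. As a check of the tissue, all 9 erythroid markers (among them Gata1, Klf1 and Hba-a1) had an optimal peak within 20 kb. Of the hepatocyte markers 4 of 7 did, without Cebpa, Ttr and Serpina1a. The macrophage markers had none (0 of 5), nor did Syn1, Myh6 and Camk2a (0 of 3), and 1 of 4 endothelial markers had a peak, Kdr. Of all protein-coding genes 38.6% had one, so apart from the erythroid set these counts are too small to tell cell types apart. In whole tissue, a peak in few cells and a weaker peak in many cannot be told apart.

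The sequences below show what lay under the summits, on the plus strand of mm10 and up to 100 bases on either side, trimmed to leave out annotated untranslated exons. The Psmd5 and Psmb4 sequences were added after their values were seen. The first 2 belong to the strongest promoter peaks of the assembly chaperones and of the core particle, Psmd5 (chr2:34870963-34871107) and Psmb2 (chr4:126677520-126677629). Capitals mark the palindrome CTCGCGAG, called the CGCG element here, together with CCAAT (the NF-Y box), GGGCGG (the GC box), CCGGAA (ETS factors) and ATGGCG (YY1), each on either strand.
Psmd5: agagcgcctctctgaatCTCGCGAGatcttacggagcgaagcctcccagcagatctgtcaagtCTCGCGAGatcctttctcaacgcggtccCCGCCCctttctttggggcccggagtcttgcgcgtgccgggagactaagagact
Psmb2: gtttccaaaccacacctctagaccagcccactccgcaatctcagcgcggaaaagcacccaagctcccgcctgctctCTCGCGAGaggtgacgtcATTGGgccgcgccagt
The Psmd5 stretch held the CGCG element 2 times and the Psmb2 stretch held it 1 time, next to a CCAAT box.

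The other promoter stretches come from the next core peaks, Psma6 (chr12:55398630-55398774) and Psma3 (chr12:70974749-70974949), and from the regulatory genes Psmd12 (chr11:107479362-107479483) and Psmc1 (chr12:100110032-100110153), with the same marking. That of Psmd1, the strongest regulatory promoter peak, lay wholly in annotated untranslated exon and is not printed.
Psma6: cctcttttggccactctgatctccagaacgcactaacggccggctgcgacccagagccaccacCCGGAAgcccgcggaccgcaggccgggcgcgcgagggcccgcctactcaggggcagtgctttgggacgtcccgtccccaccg
Psma3: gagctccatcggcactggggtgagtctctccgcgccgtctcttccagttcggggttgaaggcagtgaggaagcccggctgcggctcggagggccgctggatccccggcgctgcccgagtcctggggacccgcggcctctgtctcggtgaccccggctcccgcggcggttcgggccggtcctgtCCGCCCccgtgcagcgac
Psmd12: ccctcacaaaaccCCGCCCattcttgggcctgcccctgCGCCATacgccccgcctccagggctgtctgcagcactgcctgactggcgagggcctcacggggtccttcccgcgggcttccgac
Psmc1: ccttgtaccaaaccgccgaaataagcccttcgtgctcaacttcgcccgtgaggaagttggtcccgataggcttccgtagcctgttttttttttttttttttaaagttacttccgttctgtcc
None of these 4 held the CGCG element or a GATA motif. The Psmc1 stretch as printed held none of the marked motifs; a CCGGAA within 100 bp of the Psmc1 summit, and one at Psmd12, lay in the bases left out.

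Away from promoters the sequences looked different. The peak with the highest signal near any of the 40 genes, upstream of Psmb4 (chr3:94906564-94906764), and the peak nearest to an immune subunit gene, Psmb8 (chr17:34210660-34210860), are shown with GATA motifs (AGATAA or AGATAG or TGATAA or TGATAG, either strand) in capitals.
Psmb4: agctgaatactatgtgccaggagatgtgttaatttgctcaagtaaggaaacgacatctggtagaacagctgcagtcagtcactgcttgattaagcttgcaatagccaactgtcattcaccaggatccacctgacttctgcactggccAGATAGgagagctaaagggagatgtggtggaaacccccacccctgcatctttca
Psmb8: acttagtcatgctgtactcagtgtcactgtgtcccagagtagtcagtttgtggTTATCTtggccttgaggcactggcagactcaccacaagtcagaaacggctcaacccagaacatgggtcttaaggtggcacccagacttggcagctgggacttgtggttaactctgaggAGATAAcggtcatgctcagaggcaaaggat
The first held 1 such motif and the second 2.

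EP300 peaks lay at the promoters of a minority of the proteasome genes, with 3 strong peaks, at Psmd5, Psmb2 and Psmd1, and many weak ones. An optimal peak lay within 1 kb of a TSS of 14 of the 40 genes (35.0%, 95% Wilson interval 22.1 to 50.5), beside 15.5% of all protein-coding genes and 24.1% of the 8652 genes with a CpG-rich promoter window, which 21 of the 40 had. Within 20 kb the count was 24 of 40 (60.0%, 44.6 to 73.7), beside 38.6% of all protein-coding genes and 53.1% of those with a CpG-rich window. The 40 genes had a median of 5 annotated TSSs, against 3 over all protein-coding genes. With 1 principal TSS a gene, the counts were 13 and 22, beside 12.7% and 33.8% of all protein-coding genes. The median signal of the strongest peak within 1 kb was 33.0, against 36.0 over all protein-coding genes with one. Genes are not replicates, and no test was made of these shares.

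**Figure D1:**
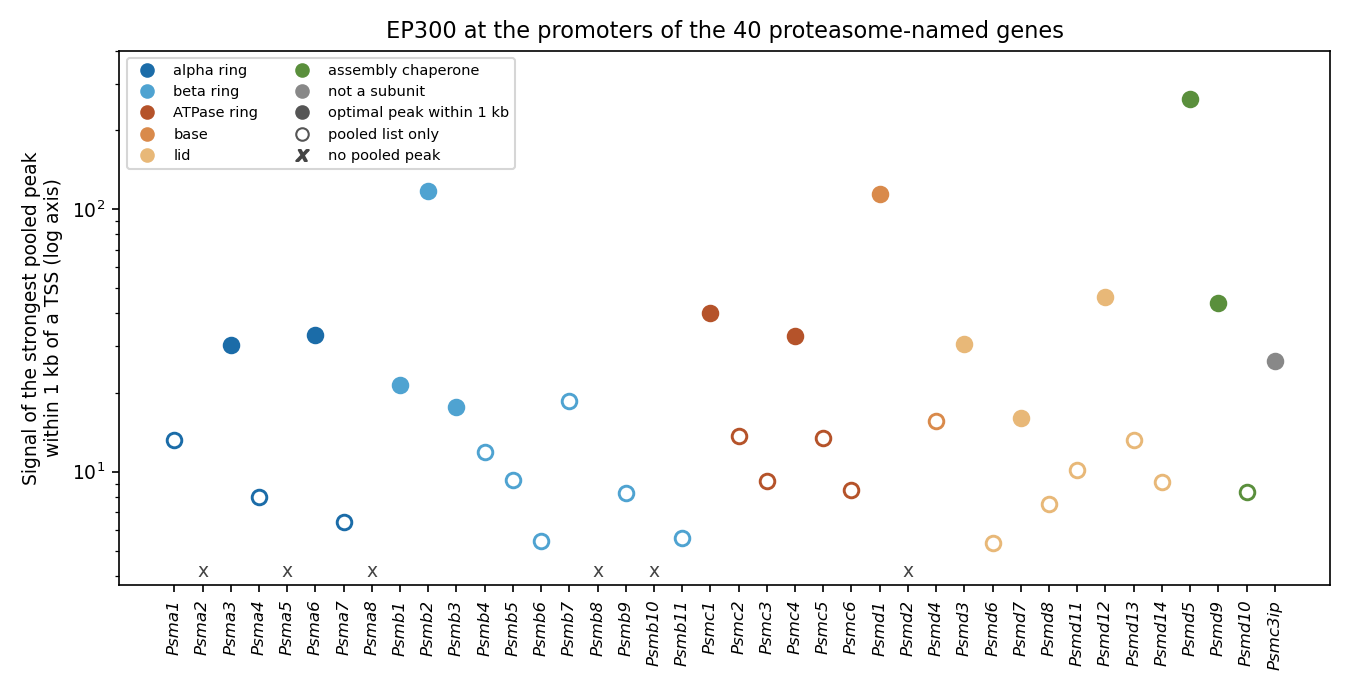
Signal of the strongest pooled peak within 1 kb of a TSS (log axis) for each of the 40 genes, coloured by role; filled points also have an optimal peak there, open points do not, and crosses mark genes with no pooled peak. Psmd5 (261.7), Psmb2 (116.7) and Psmd1 (113.5) stand above the others, which lie at 46.1 or below.

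Of the core particle, 5 of 19 genes had a promoter peak (26.3%, 11.8 to 48.8) and 9 of 19 a peak within 20 kb. For the regulatory particle the counts were 6 of 17 (35.3%, 17.3 to 58.7) and 11 of 17. The difference in promoter share, core minus regulatory, was −8.98 percentage points (−36.5 to 19.8, an interval for counting error alone), so its sign was not resolved. It turned to 2.17 points when the pooled list, cut to the same length, replaced the optimal one and to 0.929 points without replicate 1.

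**Figure D2:**
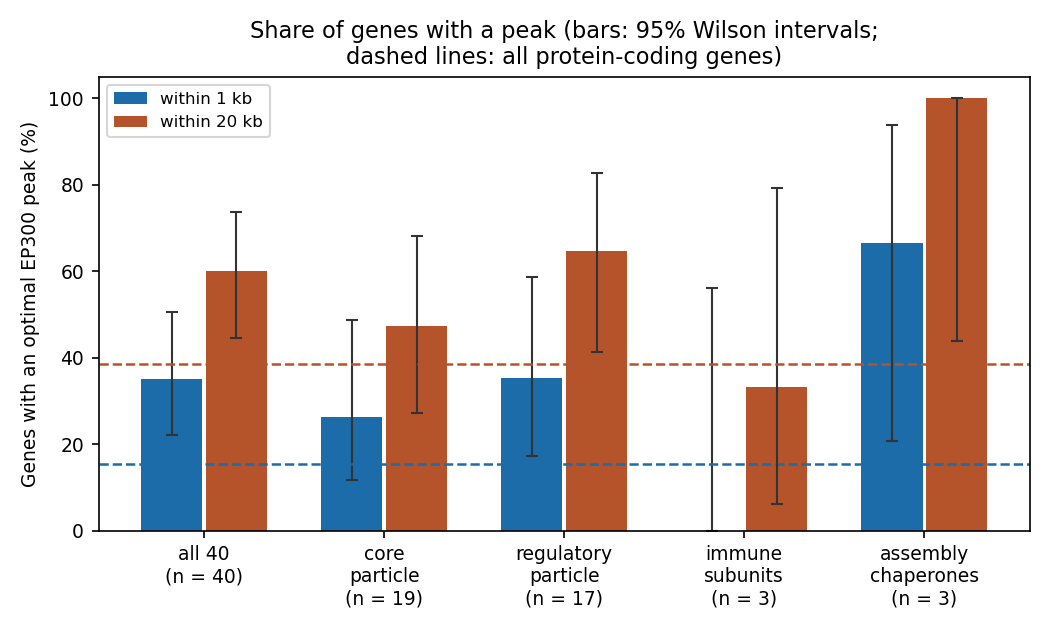
Percentage of genes with an optimal peak within 1 kb (blue) and 20 kb (brown) of a TSS, for all 40 genes, the core particle, the regulatory particle, the immune subunits and the assembly chaperones; error bars are 95% Wilson intervals and dashed lines mark all protein-coding genes (15.5% and 38.6%). The core and regulatory intervals overlap, and no immune subunit gene had a promoter peak.

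Of the alpha ring genes, 2 of 8 had a peak within 20 kb (25%, 7.15 to 59.1). That interval includes the 38.6% of all protein-coding genes. Psma6 and Psma3 had one and the other 6 of 8 had none within 20 kb: Psma1, Psma2, Psma4, Psma5, Psma7 and the testis gene Psma8. The Psma6 summit lay 45 bp upstream of the principal TSS on chromosome 12, with an optimal signal of 33.0. It had a signal of 18.9 and rank 8791 in replicate 1 and of 14.1 and rank 12097 in replicate 2. The Psma3 summit, on the same chromosome, lay 228 bp downstream of the principal TSS (optimal signal 30.4), with signals of 15.2 (rank 10731) in replicate 1 and 26.4 (rank 6723) in replicate 2. Both libraries held both peaks, with Psma6 ranked higher in replicate 1 and Psma3 in replicate 2. A second Psma3 peak, of 38.0 and with 2 GATA motifs, lay 5542 bp upstream in intergenic sequence.

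In the beta ring Psmb2, whose product is a structural beta subunit, stood out. Its summit lay 10 bp upstream of the TSS on chromosome 4, and the peak ran from 126677450 to 126677789 with an optimal signal of 116.7 (rank 2848). In replicate 1 its signal was 49.4 (rank 3373) and in replicate 2 it was 69.4 (rank 2376), so both libraries held it in their upper ranks. An intronic peak of 64.8 with 3 GATA motifs lay 4793 bp downstream of a Psmb2 TSS. A weak peak of 10.6, overlapping the promoter peak, lay 115 bp from a TSS.

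The promoter peaks of Psmb1 and Psmb3, both noncatalytic subunits, were weaker and less repeatable. That of Psmb1 (optimal signal 21.4) lay 50 bp from an alternative TSS and at −1503 bp from the principal one, where the gene of the general transcription factor TBP, Tbp, also has a TSS within 1 kb. It had a summit in replicate 1 (signal 16.8, rank 9820) and none within 100 bp in replicate 2. The Psmb3 peak (17.7) lay 931 bp upstream of its TSS, just inside the 1 kb limit, and likewise had a summit in replicate 1 (13.8, rank 11732) and none within 100 bp in replicate 2. Replicate 2 had other summits within 1 kb of a TSS of both genes, at 7.32 for Psmb1 and 12.1 for Psmb3. Neither was in the conservative list.

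Psmb4 had no optimal peak at its promoter, but the strongest peak near any of the 40 genes lay upstream of it. It ran from 94906535 to 94906802 on chromosome 3, 19703 bp upstream of the TSS, near the 20 kb limit, in intergenic sequence whose nearest coding gene was Psmb4. Its optimal signal was 264.8 (rank 693), with 142.0 (rank 569) in replicate 1 and 121.4 (rank 915) in replicate 2. Both libraries ranked it among their first 915 peaks.

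Immune subunits and their constitutive counterparts had no optimal promoter peak. Neither Psmb5, Psmb6 nor Psmb7 had an optimal peak within 1 kb, and nor did Psmb8, Psmb9 or Psmb10 (0 of 3, which has an upper 95% Wilson limit of 56.1%). Of all protein-coding genes 15.5% had a promoter peak and 38.6% a peak within 20 kb, so a promoter without one was the usual case. Psmb8 had 1 peak within 20 kb, with an optimal signal of 81.6, in an intron of the neighbouring peptide transporter gene Tap2, 11406 bp downstream of a Psmb8 TSS and 3054 bp from a Tap2 TSS. Its signals were 24.96 (rank 6755) in replicate 1 and 57.3 (rank 3017) in replicate 2, so replicate 2 ranked it higher. The same Tap2 peak was the nearest optimal summit to Psmb9, just outside the limit at 22996 bp. For Psmb10 the nearest optimal summit was also just outside, at 23333 bp.

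Of the constitutive counterparts, Psmb5, the chymotrypsin-like subunit, had 2 peaks within 20 kb, of 28.4 and 25.1, both in an intron of 4931414P19Rik. They also lay within 20 kb of Psmb11, the thymus subunit gene next to it. Psmb6 and Psmb7 had no optimal peak within 20 kb. Psmb7 had the strongest promoter peak that missed the optimal list: its pooled signal was 18.6, with 4.14 (rank 153879) in replicate 1 and 13.4 (rank 12672) in replicate 2. At the Psmb9 promoter, which lies within 1 kb of a TSS of Tap1, the pooled signal was 8.30. A replicate 2 peak lay there (12.4, rank 13584), whereas replicate 1 had none. Psmb10 had no peak within 1 kb in the pooled list or in either library.

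Among the ATPases, which unfold the substrate, Psmc1 and Psmc4 had promoter peaks. The Psmc1 summit lay 22 bp upstream of its TSS on chromosome 12 (optimal signal 40.2), with signals of 27.8 (rank 6119) in replicate 1 and 11.9 (rank 14172) in replicate 2. The Psmc4 summit lay 99 bp upstream on chromosome 7 (32.9). Replicate 1 had it at 21.6 (rank 7730). Replicate 2 had no summit within 100 bp but one elsewhere within 1 kb of a TSS (19.7, rank 8839).

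Psmc6 and Psmc3 had peaks further away and none at the promoter. Both Psmc6 peaks, of 182.4 and 157.9, lay at −7958 and −10361 bp and closer to Ero1l, an oxidoreductase gene of the endoplasmic reticulum. Psmc3 had an intronic peak of 94.3 with 3 GATA motifs, 2903 bp downstream of a TSS, the closest summit to a gene without a promoter peak. A second, of 30.7, lay 86 bp from a TSS of Slc39a13. Psmc2 and Psmc5 had none within 20 kb.

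Of the base subunits Psmd1, Psmd2 and Psmd4, Psmd1, the large scaffold of the base, had a promoter peak. Its summit lay 95 bp upstream of the principal TSS on chromosome 1 and the peak ran from 86064354 to 86064693, with an optimal signal of 113.5 (rank 2940). The signal was 67.0 (rank 2321) in replicate 1 and 45.8 (rank 3861) in replicate 2. The serotonin receptor gene Htr2b also has a TSS within 1 kb of one of Psmd1. For Psmd4, a ubiquitin receptor, 5 peaks lay within 20 kb, the strongest (59.2) in intergenic sequence 12424 bp upstream. The peak assigned to Psmd2 (48.8) lay 36 bp from a TSS of the translation factor gene Eif4g1.

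Of the lid genes, Psmd12, Psmd3 and Psmd7 had promoter peaks. Psmd12 led with an optimal signal of 46.1, 22 bp upstream of its TSS on chromosome 11, and signals of 22.8 (rank 7359) in replicate 1 and 19.98 (rank 8744) in replicate 2. The Psmd3 peak, of 30.6 and 8 bp upstream, had 11.02 (rank 14580) and 25.3 (rank 7008) in the same order. That of Psmd7, partner of the deubiquitinase subunit, was weaker at 16.1, absent within 100 bp in replicate 1 and at 11.7 (rank 14452) in replicate 2.

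Stronger lid peaks lay off the promoters. Psmd7 had one of 170.6 on chromosome 8, 10690 bp downstream of a TSS and past the end of the gene, with 83.8 (rank 1689) in replicate 1 and 85.6 (rank 1759) in replicate 2. Psmd14, the deubiquitinase itself, had an intronic peak of 113.8 with 2 GATA motifs, 48592 bp downstream of the principal TSS and 5100 bp upstream of an internal one. Psmd12 had one of 98.8 in an intron of Pitpnc1. The lid genes Psmd6, Psmd8, Psmd11 and Psmd13 had none within 20 kb.

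All 3 assembly chaperones, which help to build the ATPase ring, had a peak within 20 kb, beside 38.6% of all protein-coding genes. With only 3 genes, nothing is concluded from this count. Psmd5, whose start lies within 1 kb of one of Cutal, had the strongest promoter peak of the 40 genes, from 34870907 to 34871130 on chromosome 2 and 57 bp upstream of the principal TSS. Its optimal signal was 261.7 (rank 716), with 116.5 (rank 915) in replicate 1 and 140.3 (rank 627) in replicate 2. A second Psmd5 peak, of 49.4, lay at an internal TSS 13045 bp into the gene.

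The Psmd9 promoter peak had an optimal signal of 44.0, with 13.5 (rank 11974) in replicate 1 and 29.2 (rank 6085) in replicate 2. Psmd9 counted 7 peaks within 20 kb, the most of the 40 genes, but these were not 7 separate regions. Of them, 3 were at Setd1b and Hpd, at −46479 to −78559 bp from its principal TSS, and entered through a distant annotated start. The peaks at Setd1b overlap each other, and the intronic Psmd9 peaks of 30.7, 26.4 and 13.9 overlap in a chain. Psmd10, also called gankyrin, had no promoter peak. Its intron held one of 135.7 with 3 GATA motifs, 2920 bp downstream of the TSS on chromosome X, with 59.9 (rank 2700) in replicate 1 and 74.4 (rank 2155) in replicate 2. Psmc3ip had a promoter peak of 26.3, seen in replicate 2 (17.9, rank 9704) and not within 100 bp in replicate 1. Its weaker second peak, of 7.91, lay at −304 bp.

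GATA motifs were frequent near the distal summits of these genes and rare near their promoter summits. In all, 49 optimal peaks lay within 20 kb of one of the 40 genes: 18 within 1 kb, 9 further away but within 1 kb of another gene's TSS, and 22 over 1 kb from every annotated TSS. A GATA motif lay within 100 bp of 1 of the 18 promoter summits (5.56%), the one at the internal start of Psmd5. It lay near 38.3% of all optimal peaks within 1 kb of a coding TSS and within 100 bp of the principal TSS of 4 of the 40 genes (10.0%, against 15.5% of all protein-coding genes). Of the 22 distal summits, 19 had one (86.4%), the same share as among all 12570 distal optimal peaks (86.3%). The 3 without were weak or intermediate, at 30.7 and 6.69 near Psmd9 and 11.6 near Psmd7. These summits are not all separate sites. Some distal peaks overlap each other, in the Psmd9 intron, at Setd1b and upstream of Psmd4, as do promoter peaks of Psmb2, Psmd3 and Psmc3ip. No test was made of these shares.

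**Figure D3:**
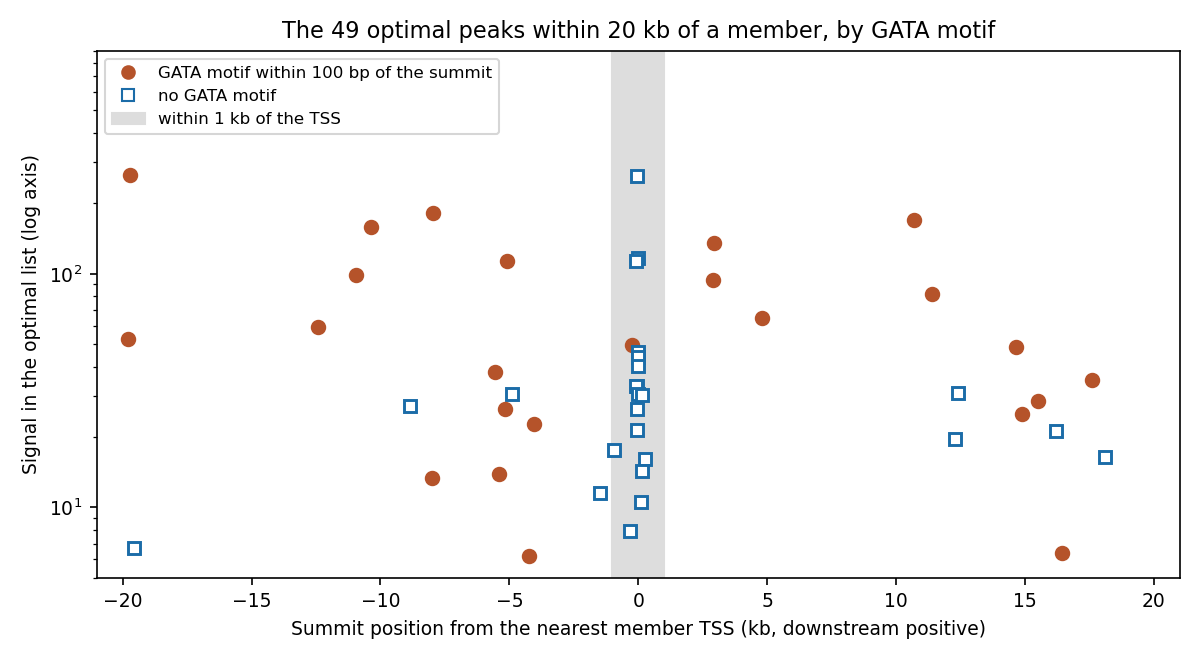
Signal (log axis) against position from the nearest TSS of one of the 40 genes (kb, downstream positive) for the 49 optimal peaks within 20 kb; filled circles have a GATA motif within 100 bp of the summit, open squares do not, and the grey band marks 1 kb. Inside the band 1 of 18 summits has the motif, and outside it most do.

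The CGCG element was looked for after the Psmd5 and Psmb2 sequences had been seen, so these 2 are no evidence about it. No other promoter summit of the 40 genes had it (2 of 18). Over the whole optimal list, CTCGCGAG lay within 100 bp of 4.31% of peaks near a coding TSS and of 0.0239% of distal peaks. The 169 promoter peaks with it had a median signal of 61.8 (quartiles 39.5 and 97.3) and the 3754 without it a median of 30.1 (19.5 and 53.4).

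ETS and YY1 motifs, typical of housekeeping promoters, were common at the TSSs of the 40 genes. CCGGAA, bound by ETS factors, lay within 100 bp of the principal TSS of 17 of 40 (42.5%, against 15.3% of all protein-coding genes), and ATGGCG, the core of the YY1 site, of 11 of 40 (27.5% against 11.1%). Around the 18 promoter summits each was present in 5 (27.8%), beside 17.0% and 10.4% of all optimal peaks near a coding TSS. For YY1 these were the summits of Psmd12, Psmc4, Psmb1 and both of Psmd3, and for ETS those of Psmd12, Psmc1, Psma6, Psmc3ip and Psmb1. The antioxidant response element (TGA and GCA with 4 bases of any kind between), the site type through which NFE2L1 and NFE2L2 act on proteasome genes, lay near 7 of 40 TSSs (17.5% against 7.82%), 3 of 18 promoter summits (16.7% against 9.71%) and 6 of 22 distal ones (27.3% against 14.5% of all distal peaks). These are matches of letters, not sites shown to be bound.

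Other motifs were near the shares of promoter peaks in general or below them. CCAAT lay in 3 of 18 (16.7% against 26.0%), GGGCGG in 6 (33.3% against 34.5%) and CACCC in 7 (38.9% against 47.1%). CANNTG, the E-box, lay in 6 (33.3% against 54.6%), and its MYC form CACGTG, which it contains, in 0 (5.66%). GCATGC, taken for nuclear respiratory factor 1, and the heat shock element GAANNTTC were in 0 of 18, against 4.97% and 4.08%. TGANTCA for AP-1 and TGACGT for cAMP-responsive factors were each in 1 (5.56%, against 4.74% and 6.42%), at Psmd7 and Psmb2. Motifs were searched on both strands and may overlap one another.

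Summits of the promoter peaks sat close to the TSS, with a median of 76 bp, against 135 bp over all 3923 optimal peaks within 1 kb of a coding TSS. Of the 18, 15 (83.3%) lay within 250 bp, against 63.7% of the 3923. Psmd9, Psmd3 and Psmb2 had the closest, at 1, 8 and 10 bp from an annotated start.

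The stronger peaks recurred in both libraries and the weak promoter peaks often did not. A summit from each library lay within 100 bp of 33 of the 49 peaks (67.3%), against 84.3% of the optimal list. Among promoter peaks it was 10 of 18 (55.6%), against 71.2% of all optimal peaks near a coding TSS. All 7 promoter peaks of the 40 genes at or above the median signal of the list recurred, as did 95.5% of such peaks near any coding TSS, and 3 of the 11 below it (27.3% against 55.7%). The 3 that did were at Psma6, Psma3 and Psmd3. Those that did not included the second promoter peaks of Psmb2, Psmd3 and Psmc3ip, whose intervals overlap the stronger peak at the same promoter. The second peaks of Psmd3 and Psmc3ip and 1 peak near Psmd4 had no summit within 100 bp in either library. Of the 49 peaks, 39 were also in the conservative list, beside 78.4% of all optimal peaks, and 36 had the highest deposited score, 1000, beside 69.5%. That score did not mark strong peaks alone: 39.8% of the optimal peaks below the median signal had it. It was also given to the Psmd9 peak of 6.69 and to the Psmb2 peak of 10.6. The former had rank 210466 in replicate 1 and no summit within 100 bp in replicate 2. Neither is an isolated site, because their intervals overlap stronger peaks with the same score, of 52.7 and 116.7 in that order. How the score was made is not stated.

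**Figure D4:**
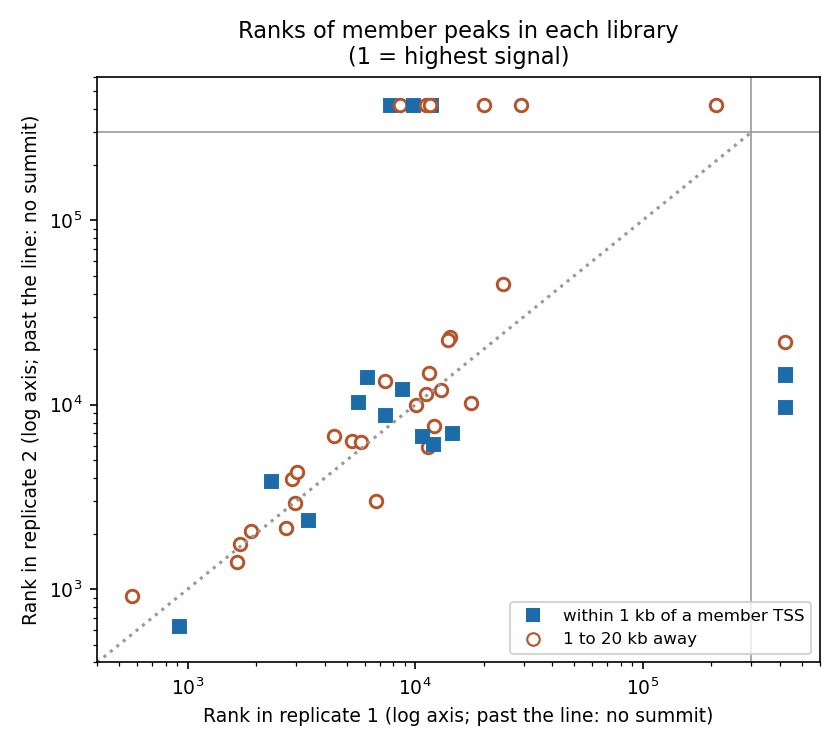
Rank of each peak near the 40 genes in replicate 1 against replicate 2 (log axes, 1 = highest signal), for the strongest summit within 100 bp; filled squares lie within 1 kb of a TSS of these genes, open circles 1 to 20 kb away, and points past the grey lines have no summit in that library. The 33 peaks found in both libraries scatter around the dotted line of equal rank, with the first ranks held by Psmb4 and Psmd5. Some lie well off the line, such as Psmc1 (6119 in replicate 1, 14172 in replicate 2) and Psmd3 (14580 and 7008).

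Weaker peaks outside the optimal list lay at most of the remaining promoters. The pooled list, which is not filtered for reproducibility, had a peak within 1 kb of a TSS of 34 of the 40 genes, beside 53.2% of all protein-coding genes and 68.8% of those with a CpG-rich window. Both libraries had a peak there for 29 of the 40, beside 40.7% of all protein-coding genes, with 11 of 19 core and 14 of 17 regulatory genes. The 6 genes with no pooled peak were Psma2, Psma5, Psma8, Psmb8, Psmb10 and Psmd2. Psma8, Psmb10 and Psmd2 had none in either library as well, and Psmb8 had one of 4.54 (rank 145366) in replicate 2. Psma2 had weak peaks in both, at 3.90 (rank 181373) and 4.01 (rank 203885), and so did Psma5, at 3.31 (rank 288073) and 7.42 (rank 28515).

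For the genes with a pooled peak but no optimal one, pooled signals ran from 5.35 at the lid gene Psmd6 to 18.6 at Psmb7. In the core these were Psma1 (13.2), Psma4 (8.04), Psma7 (6.41), Psmb4 (11.9), Psmb5 (9.31), Psmb6 (5.43), Psmb9 (8.30) and Psmb11 (5.59) besides Psmb7. At the regulatory genes Psmd4 (15.6), Psmc2 (13.7), Psmc5 (13.4) and Psmd13 (13.2) were followed by Psmd11 (10.1), Psmc3 (9.25), Psmd14 (9.14), Psmc6 (8.49) and Psmd8 (7.54). The chaperone gene Psmd10 had 8.33. The pooled signals of these core and regulatory promoters overlapped.

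Other genes of the pathway were described from a list of 31, of which 30 are annotated as protein-coding. Of these, 12 had an optimal peak within 1 kb (40%) and 20 within 20 kb (66.7%), beside the same 15.5% and 38.6% of all protein-coding genes. The strongest promoter peak was at Psme3 (signal 357.6), which encodes an alternative proteasome activator of the nucleus. Nfe2l2, a transcription factor of the antioxidant response, had a promoter peak of 232.2. Nfe2l1, the main activator of proteasome genes when the proteasome is impaired, had a weaker promoter peak (23.0), as did Adrm1 (21.9), a ubiquitin receptor of the base.

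Among the activators and assembly factors, the interferon-inducible activator genes Psme1 and Psme2 had no promoter peak but had peaks of 241.7 and 80.6 within 20 kb. Psmf1, an inhibitor, had a promoter peak of 48.7. The core assembly chaperones Psmg2 and Psmg1 had promoter peaks of 56.8 and 18.7, whereas Psmg3 and Psmg4 had none within 20 kb. Pomp, which guides maturation of the beta rings, had one of 151.5 within 20 kb. The deubiquitinase gene Usp14 had a weak promoter peak (8.89) and one of 265.1 within 20 kb. Sem1, Uchl5, Ddi2, Psme2b, Ubqln1, Ubqln2, Zfand5 and Akirin2 had none within 20 kb.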

How the data were processed

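EP300 ChIP-seq peak lists of 2 mouse liver libraries were used as deposited, in narrowPeak format on mm10. Per the deposited file listings, the list of a library was derived from filtered alignments and a control file, and the optimal and conservative lists came from both libraries' lists and the pooled list. The aligner, peak caller and thresholds were not given in the sources used here. The signal values that the authors deposited are never negative. All 17043 optimal peaks have the same summit and signal in the pooled list, and the 13369 shared with the conservative list have the same signal there, whereas each library's list has values of its own; the deposited score is a whole number of at most 1000. No read totals are given, and both libraries carry the same biosample label. The precision of the signal at a site was therefore not measured, and the intervals given reflect numbers of genes only.

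Peaks on 19 autosomes and X were placed on GRCm38 (mm10) and GENCODE vM21 with Python 3.11.15 and numpy 2.4.6. No peak ran past a chromosome end. Summits, not intervals, were set against all annotated TSSs. A CpG-rich window ran from 250 bases before to 50 after the principal TSS (the APPRIS principal coding transcript), with at least 55% GC and an observed over expected CpG of at least 0.6. Motifs were searched within 100 bp of summits. Intervals are 95% Wilson intervals (scipy 1.17.1), and that of the difference combines 2 of them; they cover counting error only. With 1 group there was no test between conditions, and no p-value was computed.

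Members, lists and motifs were chosen with earlier results of these data known. The text names every one of the 40 genes and gives values for up to 6 core and 6 regulatory genes with the strongest promoter peaks, the 4 with the strongest peaks elsewhere, the immune, thymus and testis subunits and their counterparts, the chaperones and every promoter without a peak. Other genes are named where they share a peak, and 1 gene of the pathway list is not reported here by name. The scripts were tested on simulated data. Alternatives were other peak lists, windows of 0.5 to 50 kb, other TSS sets, distal peaks alone and nearest-gene assignment.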

Additional observations from a re-analysis of the deposited data

How the results depend on the processing

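Of 80 alternative values, 60 kept their direction and lay within 1.5 times the value reported or, for a share or a difference, within its interval; 2 changed sign and 18 moved further. The numbers of genes with a peak were 6 to 18 within 1 kb (18 without replicate 1, beside 17.1% of all protein-coding genes) and 14 to 32 within 20 kb (32 with a window of 50 kb, beside 53.7%). Keeping optimal peaks above the median signal left 6 genes within 1 kb and 15 within 20 kb, beside 7.18% and 25% of all protein-coding genes, with 1 core and 3 regulatory genes at the promoter. Distal peaks alone gave 14 genes within 20 kb (35.0%), beside 26.7%. The core count was 3 with the conservative list, and with 1 library alone it ran from 7 to 8 and that of regulatory genes from 7 to 8. Core minus regulatory was 2.17 points with the top of the pooled list and −10.2 to 0.929 points with 1 library alone. Immune subunits within 20 kb numbered 1 to 2 with 1 library alone (2 without replicate 1, Psmb9 being the second, with a replicate 2 peak of rank 13584). They numbered 0 within 5 kb, 3 within 50 kb and 0 when each peak was given to its nearest gene. The shares of all protein-coding genes were 23.5%, 53.7% and 27.2% in that order. In the 50 kb count the Tap2 peak lay within the window of both Psmb8 and Psmb9. The share of all protein-coding genes with a promoter peak was 24.1% with a CpG-rich window. Within 50 bp of the 18 promoter summits, the antioxidant response element was in 0 and AP-1 in 0 (4.95% and 2.45% of all optimal peaks near a coding TSS), the GC box in 3 (19.3%), CACCC in 4 (27.7%), the E-box in 2 (34.1%) and YY1 in 2 (5.12%). The cause of these changes was not tested. Principal TSSs alone, the count of subunits alone and summit distances of 50 and 200 bp between libraries were chosen after seeing the data. No paired analysis was possible because there is a single group. Depth is not given, so a promoter without a peak is one without a detected peak.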
